A study of Sus scrofa with 8 samples.

Results

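The proteins of the small, or 40S, subunit of the cytosolic ribosome were examined in skeletal muscle of pigs on a high energy diet against pigs on a low energy diet. A list of 28 genes, chosen with earlier results of these data known, was matched to the platform annotation. The match used single gene symbols and no measured value. Of the 28 genes, 24 had at least 1 spot, with 64 spots among them, and all 24 were measured on all 8 arrays. The laminin receptor gene RPSA, RPS7, RPS15A and RPS27A, which encodes a fusion of ubiquitin with a 40S protein, had no spot with a single symbol. The 24 genes are part of 2922 genes with 1 symbol and of 6296 features on the array, a feature being a gene or a spot without a single symbol. For all 24, the symbol also occurs in the pig RefSeq table.

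The 40S subunit binds messenger RNA, scans it for the start codon and holds the decoding centre, where the codon meets its transfer RNA. It consists of 1 ribosomal RNA and a set of proteins that lie in its head, its body or its platform. Messenger RNAs of ribosomal proteins start with a tract of pyrimidines that places their translation under the control of the kinase mTOR. Ribosome content is one of the determinants of protein synthesis in muscle. Genes of this family have many processed pseudogenes, so a spot can bind RNA of close copies.

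Muscle RNA was compared in competition: each array carried cDNA of 1 low energy sample and 1 high energy sample, labelled with Cy3 and Cy5 (dyes 3 and 5 in the labels). The 8 arrays form 4 couples, each hybridised in both dye orientations. Couple 1 held low energy sample 49 and high energy sample 40, couple 2 held 61 and 41, couple 3 held 142 and the same high energy sample 40, and couple 4 held samples named be and ae. Beyond diet, species and tissue, the labels give no breed, age, sex or duration of feeding for either group, and what the letters be and ae stand for is not stated. They do not say whether a sample is 1 animal or a pool, so differences between couples may in part be technical. The same 2 RNAs were on both arrays of a couple, which were averaged to 1 replicate, so n = 4 couples.

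The deposited values are log2 ratios, and a positive value was read as higher in high energy muscle. That reading is likely but not settled. Low energy is the reference per the design text, and the labels give it channel 1 and high energy channel 2 throughout. If the values were instead ratios of dye 5 over dye 3, the 4 arrays carrying high energy in dye 3 would change sign. The mean after that turn is given below as the turned value. The probes were named by human accessions, so pig transcripts may bind them unequally, and a ratio gives no level of expression.

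Of the 9984 spots of an array, 77.6% to 94.4% had a value. Brightness was known only as the recovered signal, which is the larger of the 2 smallest whole numbers whose ratio gives the deposited value. The spot was at least that bright only where the deposited value is a ratio of whole numbers. Small whole numbers were found for 85.9% to 97.1% of the values of an array. Very large ones, as for some spots of RPS27, could also come from a value that is no such ratio. The median recovered signal over an array was 187 to 607. For the 24 genes, the median ranged from 240 for RPS4X to 13081 for RPS27, whose spots differ widely. All 10 skeletal muscle markers had a spot, with a median recovered signal of 1044, but ratios cannot show whether they are abundant. Their median log2 ratio was -0.10 (turned 0.021). Of other cell types, markers of blood (3 tested of 4 listed), matrix and fibroblasts (3 of 5), adipocytes (2 of 4), immune cells (3 of 5) and vessels (2 of 5) had median log2 ratios of -0.025, 0.0013, -0.072, -0.049 and 0.18 (turned 0.094, -0.14, 0.16, -0.035 and -0.0020). Their part in the ratios below was not tested, and in whole muscle a change in the mix of cells and a change within cells cannot be told apart.

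No 40S gene passed the test of a difference between the diets. In limma's test, 0 of 24 genes passed an adjusted p of 0.05, as did 0 of the 5025 features tested, which is 0% (smallest adjusted p = 0.996, also the smallest among the 40S genes). At an unadjusted p under 0.05, 0 of the 24 genes were above 0 and 0 were below, where 1.37% of features were above and 2.41% below. The mean log2 ratio was above 0 for 15 of 24 genes, against 46.4% of features. Ratios ran from -0.16 for RPS15 to 0.19 for RPS29, with a median of 0.013, beside -0.0087 over the 2556 genes tested. With the sign turned, the median of the 24 genes was -0.037, beside -0.011 over the genes tested. Then 8 of 24 were above 0, against 47.4% of features, so even the direction of this small offset rests on the reading of the ratio.

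The intervals bound how large a difference could have been missed. The standard errors are limma's, which draw the variance of a gene towards that of all features, so a gene with very even couples keeps an error near the lowest one. For the 24 genes they were 0.080 to 0.16, and their 95% intervals together spanned -0.46 to 0.57. Every interval contained 0, and all 24 lay within a 1.5-fold difference in either direction, as did 73.7% of features. The bounds nearest to that limit belonged to RPS25 above and RPS10 below. This count was 23 with the sign turned, beside 74.8% of features. It was 19 without couple 4, beside 62.4% of features, so it is no firm limit for every gene.

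**Figure D1:**
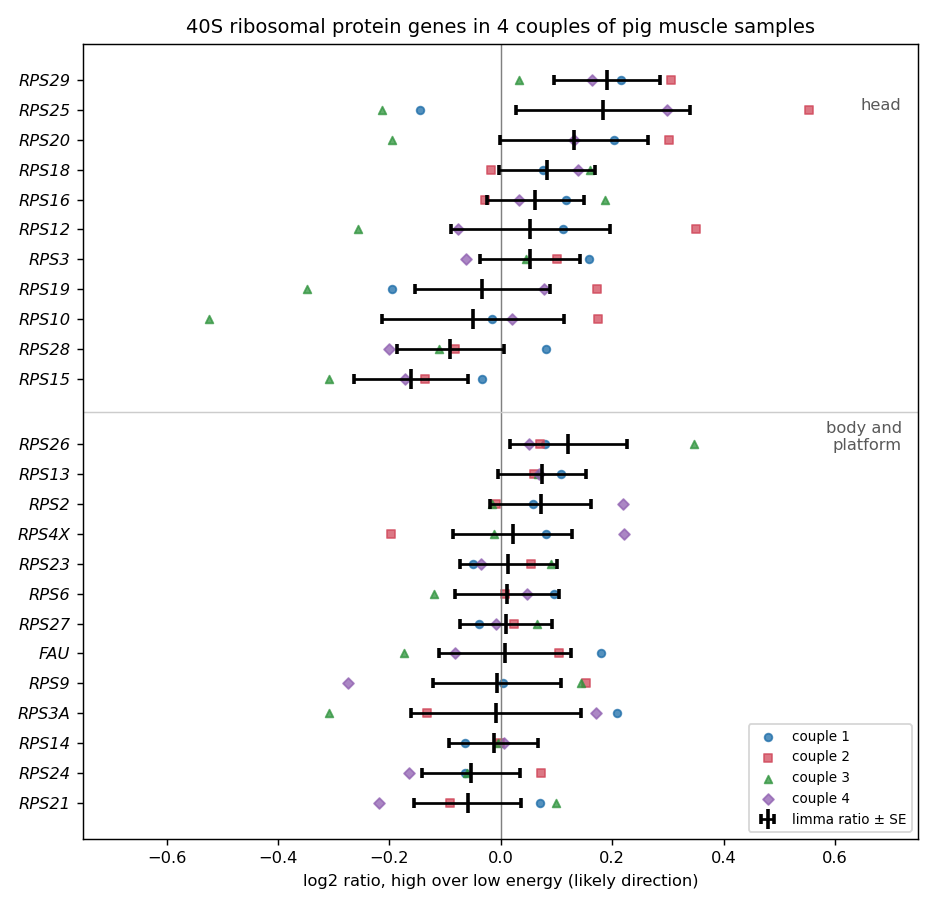
Log2 ratio of high over low energy muscle (horizontal) for each of the 24 genes, with head proteins above the line and body or platform proteins below it. Coloured marks are the 4 couples, and the black bar is limma's ratio with its standard error; the couples of most genes lie on both sides of 0, and those of RPS29, RPS13 and RPS26 lie above it and those of RPS15 below.

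Of the 24 genes, 11 encode proteins of the head of the subunit, which bends over the messenger RNA and contacts the transfer RNAs, and 7 of them were above 0. Their median ratio was 0.053 (turned -0.057), and it was 0.082, 0.17, -0.19 and 0.033 in couples 1 to 4. The other 13 belong to the body and platform, of which 8 were above 0, with a median of 0.010 (turned -0.025). Ratios of the body and platform genes ran from -0.059 to 0.12.

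RPS29, a small zinc-binding protein of the head, had the ratio farthest above 0. In couples 1 to 4, its log2 ratio was 0.27, 0.24, -0.16 and 0.019 on the arrays with high energy in dye 5. On the swapped arrays it was 0.16, 0.37, 0.22 and 0.31. It was thus above 0 on 7 of 8 arrays, the exception being the dye 5 array of couple 3, and above 0 in all 4 couples. The ratio was 0.19 ± 0.095 (limma's moderated SE, as for all ratios here, n = 4 couples; 95% interval -0.048 to 0.43; turned -0.090), or 1.14-fold, and it did not pass the test. Its 2 spots had means of 0.14 and 0.22.

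RPS25, a head protein needed for initiation at some viral internal entry sites, differed mostly between couples. On the dye 5 arrays of couples 1 to 4 it had -0.27, 0.49, -0.42 and 0.38. On the swapped arrays it had -0.020, 0.62, -0.0085 and 0.22. All arrays of couples 2 and 4 were above 0 and all arrays of couples 1 and 3 below, and the swapped arrays of each couple shared a sign. Its spots had 0.25 and -0.29 on the swapped array of couple 1, and 0.021 and -0.038 on that of couple 3. The sign on those arrays thus belongs to the average of the spots. The ratio was 0.18 ± 0.16 (95% interval -0.21 to 0.57; turned -0.061), and without couple 2 it was 0.025. The fit gives less weight to each of couples 1 and 3, which share a sample. With the couples taken as independent, the ratio of RPS25 was 0.12.

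RPS20, also of the head, was above 0 on 7 of 8 arrays. The dye 5 arrays of couples 1 to 4 gave 0.084, 0.51, 0.044 and 0.069, and the swapped arrays 0.32, 0.094, -0.43 and 0.19. The single array below 0 was the swapped array of couple 3. Its ratio was 0.13 ± 0.13 (turned 0.068), and it was 0.080 without couple 1, 0.059 without couple 2 and 0.21 without couple 3.

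RPS15, a head protein whose tail reaches the decoding centre, was the 1 gene below 0 on all 8 arrays. With high energy in dye 5, couples 1 to 4 gave -0.044, -0.19, -0.37 and -0.061. The swapped arrays gave -0.024, -0.084, -0.25 and -0.28. The couple means were -0.034, -0.14, -0.31 and -0.17, and the ratio was -0.16 ± 0.10 (95% interval -0.42 to 0.094; turned 0.0042). Among features measured on all arrays, 1.46% were below 0 on all 8 arrays and 0.797% above 0 on all 8, the latter including 0 of the 24 genes. Its 2 pairs of spots gave means of -0.13 and -0.19, yet on 5 arrays the pairs had opposite signs, so the single sign belongs to their average.

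RPS28, a head protein next to the exit of the messenger RNA channel, lay lower with high energy in dye 5 than with the dyes swapped. On the dye 5 arrays it had 0.036, -0.22, -0.35 and -0.37, and on the swapped arrays 0.13, 0.054, 0.13 and -0.031. In each couple the dye 5 array was the lower. That order belongs to the average of the spots, since no single pair of spots had it in every couple. The pair with the highest recovered signal had 0.17, -0.044, 0.030 and -0.10 on the dye 5 arrays. On the swapped arrays that pair had -0.0049, 0.0067, 0.027 and -0.11. The share of features with this order was not counted. The ratio was -0.090 ± 0.096 (turned -0.15), and -0.043 without couple 4. RPS28 shares a gene symbol field with NDUFA7 on 2 further spots, which were left out.

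RPS10, a head protein ubiquitinated when ribosomes stall, had the widest range. On the dye 5 arrays it had 0.12, 0.19, -1.19 and -0.0067, and on the swapped arrays -0.15, 0.15, 0.14 and 0.047. Apart from the dye 5 array of couple 3, all its arrays lay between -0.15 and 0.19. Its 2 spots on that array gave -2.05 and -0.33, and the ratio of -0.050 ± 0.16 (turned -0.11) became 0.084 without that array, a setting chosen after the data were seen. The ratio without couple 3 was 0.060.

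RPS12, a protein of the beak of the head, had the same array at the bottom of its range. In couples 1 to 4 the dye 5 arrays gave 0.044, 0.44, -0.61 and -0.075, and the swapped arrays 0.18, 0.26, 0.093 and -0.078. The pair of spots with -0.68 and -1.72 on that array held the low value, while the other pair had 0.12 and -0.14 there. Its ratio was 0.053 ± 0.14 (turned -0.057), and it was 0.0057 without couple 1, -0.074 without couple 2, 0.13 without couple 3 and 0.11 without couple 4.

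The other 4 head proteins had small ratios. RPS18 had 0.083 ± 0.086 (turned -0.093) and was above 0 on 7 arrays, RPS16 had 0.062 ± 0.087 (turned -0.046), and RPS3, which lines the entry of the messenger RNA, had 0.053 ± 0.089 (turned 0.057). RPS3 was 0.028 without couple 1, 0.032 without couple 2 and 0.10 without couple 4. RPS19, the gene most often mutated in Diamond-Blackfan anaemia, had -0.033 ± 0.12 (turned 0.10). It was -0.12 without couple 2, 0.019 without couple 3 and -0.081 without couple 4, and RPS18 was 0.13 and RPS16 0.10 without couple 2.

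**Figure D2:**
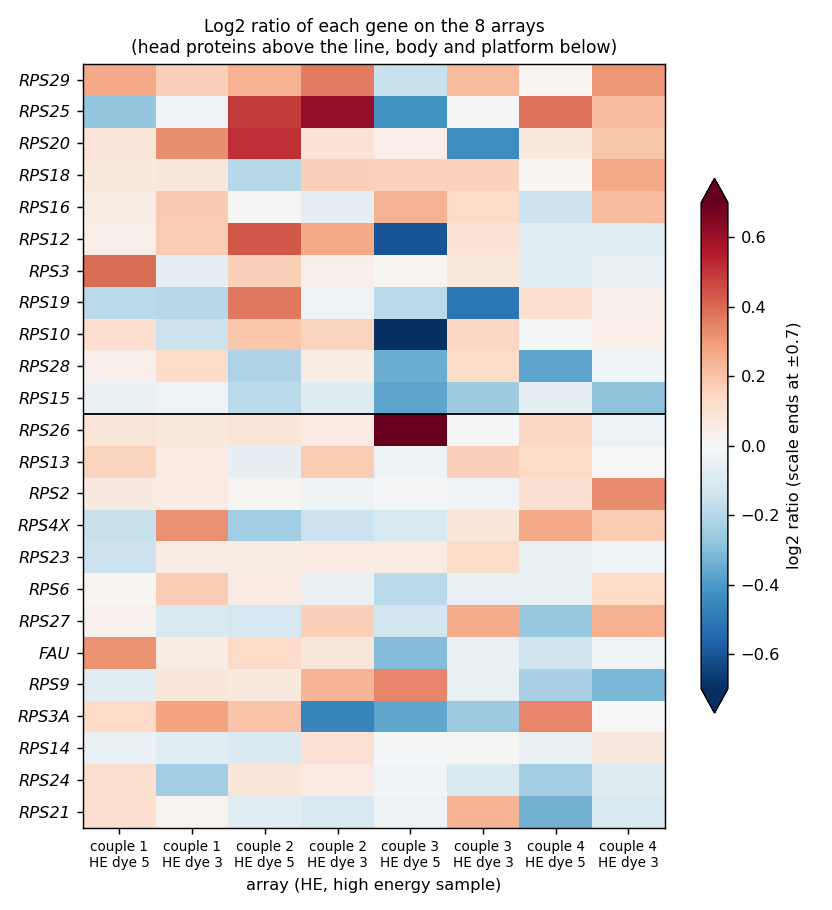
Log2 ratio of each of the 24 genes (rows) on each of the 8 arrays (columns), by couple and by the dye of the high energy sample, on a colour scale centred at 0 whose ends hold all values past 0.7. Colours of a gene often change between the swapped arrays of a couple, and the dye 5 array of couple 3 holds both extremes, RPS10 at -1.19 and RPS26 at 0.71.

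In the body and platform, RPS26, which contacts the messenger RNA upstream of the start codon, lay farthest above 0. With high energy in dye 5 it had 0.085, 0.082, 0.71 and 0.15, and the swapped arrays 0.075, 0.059, -0.016 and -0.043. It was above 0 on 6 arrays and in all 4 couples, with 0.71 far from the rest. Both of its spots were high on that array, at 0.91 and 0.51. The ratio was 0.12 ± 0.11 (95% interval -0.14 to 0.39; turned 0.11), but 0.067 without couple 3 and 0.049 without that array.

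RPS13, a body protein, had the most even couples among the genes above 0, at 0.11, 0.061, 0.068 and 0.069, though its arrays ran from -0.059 to 0.18. Their SD was 0.022, and limma's moderated error was larger, with a ratio of 0.074 ± 0.080 (turned -0.025). RPS13 was looked at after its values were seen. With RPS26 and RPS29, it makes 3 of 24 genes above 0 in all 4 couples, against 7.47% of 3640 features with values on all arrays. RPS15 was the 1 gene below 0 in all 4 couples, against 9.12% of features.

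RPS6, the 40S protein phosphorylated by S6 kinase downstream of mTOR, lay close to 0. The dye 5 arrays gave 0.015, 0.059, -0.19 and -0.044, and the swapped arrays 0.18, -0.044, -0.052 and 0.14. Its arrays were split 4 above and 4 below 0, and in couples 2 and 4 the swapped arrays had opposite signs. The ratio was 0.011 ± 0.094 (95% interval -0.22 to 0.25; turned -0.041). An array of RNA does not report phosphorylation of the protein.

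FAU encodes the 40S protein eS30 fused to a ubiquitin-like peptide. The dye 5 arrays gave 0.31, 0.13, -0.30 and -0.14, and the swapped arrays 0.049, 0.077, -0.044 and -0.027. Couples 1 and 2 were above 0 on both arrays and couples 3 and 4 below on both, so the ratio was 0.0081 ± 0.12 (turned -0.0079). On the average of the spots, its swapped arrays shared a sign in every couple, as those of RPS15 and RPS25 did. That makes 3 of 24 genes, against 7.72% of features.

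RPS21, a small protein of the body, and RPS24, which is mutated in some Diamond-Blackfan anaemia, were the lowest of the body and platform. RPS21 had 0.12, -0.077, -0.036 and -0.33 on the dye 5 arrays and 0.021, -0.10, 0.24 and -0.11 on the swapped arrays. Its ratio was -0.059 ± 0.096 (turned -0.047) and 0.010 without couple 4, and its 3 pairs of spots disagreed, with means of 0.073, 0.025 and -0.17. RPS24 had 0.12, 0.084, -0.018 and -0.25 on the dye 5 arrays and -0.24, 0.059, -0.10 and -0.084 on the swapped arrays, with a ratio of -0.053 ± 0.088 (turned 0.024). Neither gene kept a sign over the couples, and the ratio of RPS24 was -0.11 without couple 2 and -0.0047 without couple 4.

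RPS27, a zinc-binding protein, had a ratio near 0 and differed between the swapped arrays of a couple. It was looked at after its values were seen. The dye 5 arrays gave 0.031, -0.12, -0.13 and -0.27, and the swapped arrays -0.11, 0.17, 0.26 and 0.25. Swapped arrays had opposite signs in each of the 4 couples, as for 6.4% of features, and no other 40S gene did so. The dye 5 array was the higher in couple 1 and the lower in couples 2 to 4. The ratio was 0.010 ± 0.083, while the turned value of -0.15 was the farthest from 0 with that of RPS28.

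The other 6 body and platform genes lay between -0.013 and 0.072. RPS2, at the entry of the messenger RNA channel, had 0.072 ± 0.091 (turned -0.023), RPS4X, encoded on the X chromosome, 0.022 ± 0.11 (turned -0.068), and RPS23, a protein of the decoding centre, 0.014 ± 0.087 (turned -0.033). RPS9 had -0.0066 ± 0.11 (turned 0.011), RPS3A -0.0085 ± 0.15 (turned 0.12) and RPS14, the gene lost in the 5q deletion syndrome of the marrow, -0.013 ± 0.080 (turned -0.047). None of these genes had 1 sign in all 4 couples. Single couples carried several of these values. RPS2 was 0.0089 without couple 4, which had 0.22, and RPS4X was -0.064 without couple 4 and 0.12 without couple 2. RPS9 was 0.11 without couple 4, RPS3A was 0.082 without couple 3 and RPS23 was -0.010 without couple 3.

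**Figure D3:**
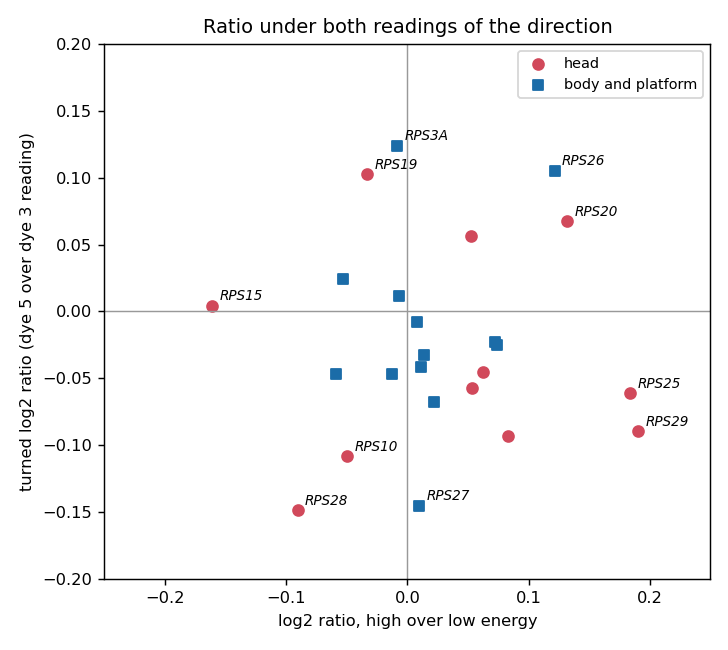
Log2 ratio of each of the 24 genes (horizontal) against its turned value (vertical), the mean once the 4 arrays carrying high energy in dye 3 are given the other sign. The values on the vertical axis span -0.15 to 0.12, as wide a band as most ratios, and 17 of 24 genes have a turned value of the opposite sign.

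The turned value was about as large as the ratio itself, with a median size of 0.057 over the 24 genes against 0.053. Both come from the same arrays, so noise alone would give them like sizes. Under the reading used here the turned value measures the difference between dye orientations, and under the other reading it is the diet ratio. For turned values, the smallest adjusted p in limma was 0.998, and 0 genes of the 24 passed.

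On 1 array a few of these genes lay far out. The SD over the 24 genes was 0.15 to 0.22 on 7 arrays and 0.36 on the dye 5 array of couple 3, where the SD over all genes was 0.57, against 0.25 to 0.58 on the others. The scaled median absolute deviation of the 24 genes was 0.18 on that array and 0.10 to 0.20 on the other 7. It gives little weight to a few far values, so most of the genes were not more spread there. The median of the 24 genes on that array was -0.072, with 7 of 24 above 0, while its swapped array had 0.040 and 13 above 0. Arrays of couples 1 and 2 had medians of 0.057 to 0.064, with 16 or 17 of 24 above 0. Couple 4 had -0.048 and 0.021, with 10 and 13 above 0. Of all genes tested, 1178 of 2421 and 1270 of 2478 were above 0 in couple 1, the dye 5 array first. In couple 2, 1323 of 2534 and 1303 of 2541 were above 0. In couple 3 it was 1224 of 2456 and 1227 of 2457, and in couple 4 1207 of 2505 and 1152 of 2322. Without the dye 5 array of couple 3, the median ratio of the 24 genes was 0.045. Then 17 of 24 were above 0, against 47.5% of features, and RPS29 was 0.23.

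Some genes split couples 1 and 3 from couples 2 and 4. Couples 1 and 3 share high energy sample 40, while couples 2 and 4 hold different high energy samples. The split was noticed after the values were seen. RPS25 and RPS19 were lower on all 4 arrays of couples 1 and 3 than on any array of couples 2 and 4, as were 1.73% of features. RPS19 had -0.19, 0.37, -0.19 and 0.11 on the dye 5 arrays of couples 1 to 4, and -0.20, -0.023, -0.51 and 0.042 on the swapped arrays. For RPS19 the order belongs to the average of the spots, since neither spot had it alone. Its spots gave 1.08 and -0.34 on the dye 5 array of couple 2. For RPS25, a spot had 0.25 on the swapped array of couple 1, above its 0.22 on that of couple 4. RPS21 was higher on all 4 arrays of couples 1 and 3, as were 1.26% of features. Its closest values were -0.036 on the dye 5 array of couple 3 and -0.077 on that of couple 2. Different spots of RPS21 were missing on those arrays, so this split is narrow. Across the 24 genes, which are not independent replicates, Pearson's r between couples 1 and 3 was 0.18, within the range of -0.23 to 0.24 over the 6 pairs of couples. Whether sample 40 accounts for the split was not tested. With the sign turned, the split of RPS25 would be gone, since its swapped arrays share a sign.

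Duplicate spots on 1 slide show the error of a spot, without that of labelling, dye or hybridisation. Over 32 neighbouring pairs of spots, the SD of a single spot was 0.195 for the 40S genes (0.135 to 0.237 over arrays). It was 0.287 for 3305 pairs of all named spots. Both were estimated from the median absolute difference between duplicates, which gives little weight to large differences. For the 18 genes with 2 spots, the median SD of the ratio between couples was 0.127. The duplicate error, averaged over 2 spots and 2 arrays, comes to 0.0977. The SD between couples is an ordinary SD, which counts large differences in full, so it cannot be set directly against 0.0977. For 1662 genes of the whole array with 2 spots, the median SD between couples was 0.176.

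Duplicate spots ranked the 40S genes poorly. On the 8 arrays, Pearson's r between duplicates across these genes was -0.13 to 0.43, a description over spots that share a slide. Swapped arrays of a couple correlated at 0.036, 0.36, -0.016 and 0.36 in couples 1 to 4 across the 24 genes. Couples 2 and 4 thus repeated the order of the genes in part when the dyes were swapped, and couples 1 and 3 did not.

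**Figure D4:**
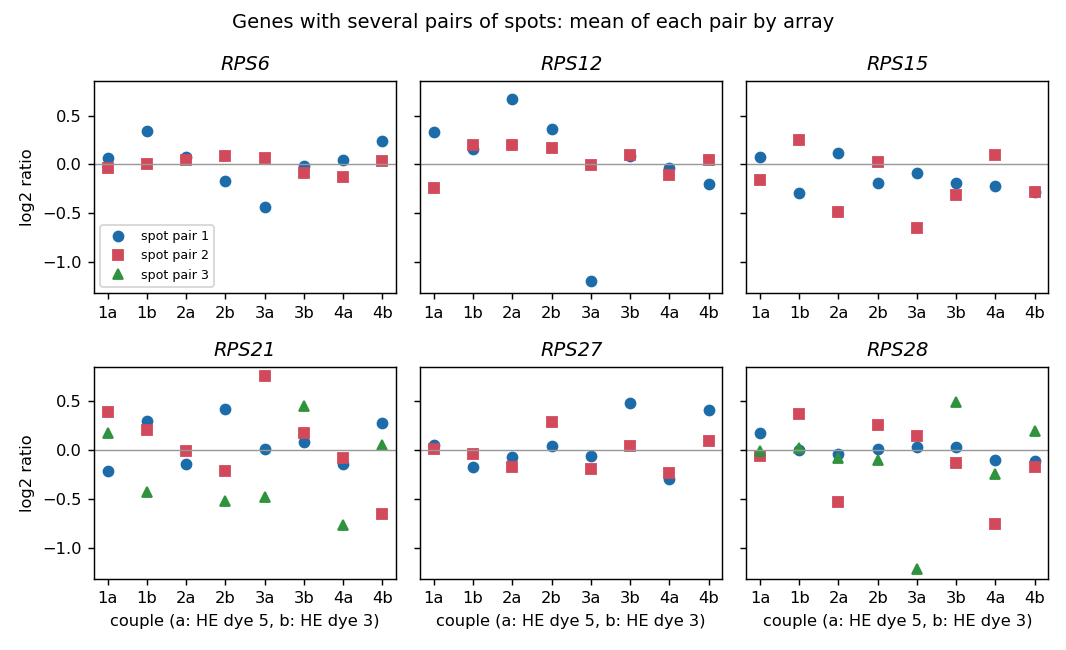
Mean log2 ratio of each pair of neighbouring spots (vertical) on the 8 arrays (horizontal) for the 6 genes with several pairs, where a and b are the arrays of a couple with high energy (HE) in dye 5 and in dye 3. Pairs of 1 gene often lie on opposite sides of 0 on the same array, as on 5 arrays for RPS15.

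For 13 of the 24 genes, the spots differed in the sign of their mean over arrays. The lowest and highest spot means were -0.055 and 0.070 for FAU, -0.26 and 0.084 for RPS10, -0.073 and 0.12 for RPS12, and -0.073 and 0.040 for RPS14. They were -0.50 and 0.11 for RPS15, -0.30 and 0.19 for RPS21, -0.012 and 0.042 for RPS23, -0.12 and 0.064 for RPS27, and -0.19 and 0.031 for RPS28. RPS3A had -0.13 and 0.10, RPS4X -0.019 and 0.11, RPS6 -0.020 and 0.047, and RPS9 -0.016 and 0.030. The gene farthest below 0, RPS15, is in this group, while both spots of RPS29, RPS25, RPS20 and RPS26 were above 0. Among the spot values of the 24 genes, 4 were missing, and the mean of the remaining spots was used.

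Brightness and range over arrays were set side by side as a description, since the recovered signal is at best a lower bound and differs between probes of 1 gene. The 16 genes with a median log2 recovered signal of at least 9 had a median range over arrays of 0.462, and the other 8 had 0.591. The spots of RPS27 show how uneven the recovered signal can be, with 25447, 50574, 433 and 715.

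The 40S genes correlated weakly with each other. Over the 276 pairs of genes, the median r across 8 arrays was 0.073. RPS29 followed the mean of the other genes most closely (r = 0.89, and 0.67 without the dye 5 array of couple 3). RPS26 ran against it (r = -0.89), but its r was -0.23 without that array. Of 1904 genes measured on all arrays, the 3 whose values were most like the mean of the 40S genes were SUPT4H1 (r = 0.990), COX7A2 (r = 0.975) and EIF2B3 (r = 0.948) over 8 arrays, with 0.967, 0.936 and 0.833 over the 7 arrays without that one. SUPT4H1 encodes an elongation factor of transcription, COX7A2 a subunit of cytochrome c oxidase and EIF2B3 a subunit of the exchange factor of eIF2. These are the highest of many correlations over few arrays.

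Related genes were read from the same fit. The proteins of the large, or 60S, subunit, which joins the 40S to form the ribosome, had 40 of 48 listed genes tested. Of these, 31 were above 0, with a median of 0.044 (turned -0.021) and a range of -0.086 to 0.41. By couple the 60S median was 0.038, 0.040, 0.028 and 0.062, and that of the 24 40S genes 0.077, 0.057, -0.013 and 0.027. The 60S median was therefore above 0 in every couple and the 40S median in 3 of 4, and the difference between the subunits was not tested. The 60S genes with the smallest p were RPL13 at 0.22 ± 0.082 (turned 0.073) and RPL19 at 0.20 ± 0.095 (turned -0.0028), neither past the adjusted threshold.

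Factors that build the 40S subunit lay lower: 2 of 8 tested genes, out of 38 listed, were above 0, with a median of -0.059 (turned 0.057). IMP4, part of the complex that processes the precursor of 40S ribosomal RNA, had -0.21 ± 0.16 (turned -0.096), and RPS19BP1, which binds RPS19, had -0.10 ± 0.086 (turned 0.084). Most of the listed factors were not tested, so the median speaks for a small share of them. Initiation factors that bind the 40S had 8 of 16 tested genes above 0, out of 26 listed, with a median of 0.0041 (turned -0.018). Of the subunits of eIF3, the factor that prepares the 40S for messenger RNA, EIF3A had -0.17 ± 0.098 (turned 0.14) and EIF3C -0.18 ± 0.13 in 3 couples (turned -0.00025).

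In the mTOR and S6 kinase pathway, which controls translation of these genes, 6 of 9 tested genes were above 0, out of 24 listed, with a median of 0.032 (turned 0.012). LARP1, which binds messenger RNAs with the pyrimidine tract, had 0.26 ± 0.20 (turned 0.26). Its couples 1 to 4 had 0.17, -0.20, 0.10 and 0.88, with arrays from -2.23 to 2.43 and 3 of 8 above 0, so the ratio rests largely on couple 4. MLST8, a subunit of the mTOR complexes, had -0.098 ± 0.090 (turned -0.034). The small subunit of the mitochondrial ribosome, a separate particle, had 4 of 10 tested genes above 0, out of 31 listed, with a median of -0.041 (turned 0.043). MRPS15 had -0.16 ± 0.10 (turned 0.0072) and MRPS28 0.11 ± 0.11 in 3 couples (turned -0.29). In these lists, 0 genes passed the adjusted threshold.

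**Figure D5:**
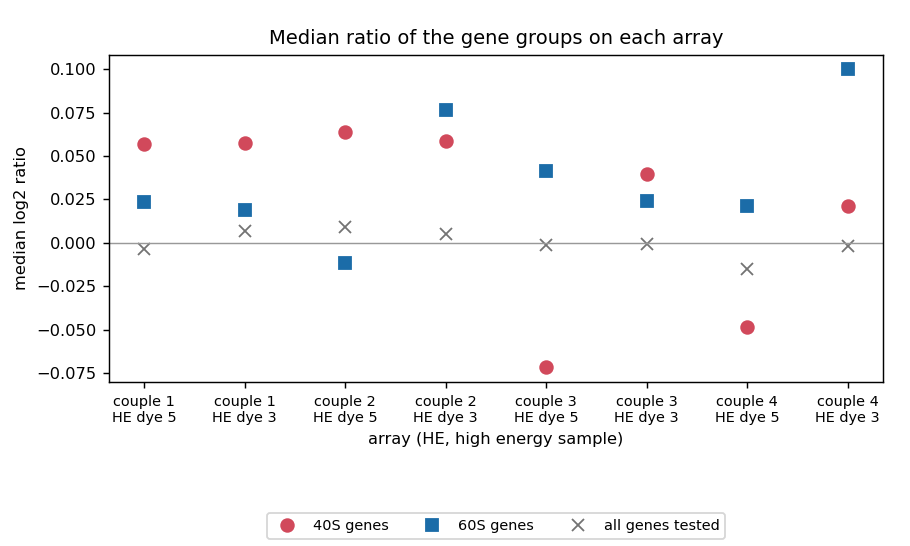
Median log2 ratio (vertical) of the 24 40S genes, the 60S genes tested and all genes tested on each of the 8 arrays (horizontal). The 40S median lies above 0 on 6 arrays and below 0 on the dye 5 arrays of couples 3 and 4, at -0.072 and -0.048, whereas the 60S median runs from -0.012 to 0.100.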

How the data were processed

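The deposited values are log2 ratios between the channels of an array, already centred near 0; the authors' steps before that (background, filter, normalization) are not stated in the labels or files used. RNA extraction followed a modified Chomczynski protocol and a ScanArray LITE scanner was used, per the series' design text. Arrays were centred on their medians, spots of a symbol averaged, and swapped arrays of a couple averaged. Features with both orientations in at least 3 couples were tested against 0 (limma 3.58.1, R 4.3.3, lmFit and eBayes, two-sided), with couples that share a high energy sample correlated at a fixed 0.5, so a fitted ratio is a weighted mean of couples. The value of 0.5 was set, not estimated, and Pearson's r between couples 1 and 3 across features was 0.064. Benjamini-Hochberg adjustment ran over 5025 features (threshold 0.05). Replicate numbers pair swapped arrays of 1 couple. The test was also run on simulated data. The outcome is not given here, so nothing is concluded from it about the test on these arrays.

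The 40S genes and the gene lists were chosen with earlier results of these data known. Values on 8 arrays are given for the 4 genes with the smallest p on each side of 0, genes with 1 sign on 8 arrays, the 3 widest ranges, RPS6 and FAU. Spot means are given where spots differ in sign, the 2 smallest p per list, and the 3 genes most correlated with the 40S mean. Sequences and coordinates were not used here.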

Additional observations from a re-analysis of the deposited data

Results flagged for a closer look

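Each of the 24 genes was searched for a couple, or an array within 1 dye orientation, far from the other 3; the 75 groups searched include the median of the 24 genes, and chance gives about 1 in 20. In 5 groups a value stood apart. RPS26 had 0.35 in couple 3 against 0.051 to 0.080 in the other couples, and among the arrays with high energy in dye 5 it had 0.71 in couple 3 against 0.082 to 0.15. RPS10 had -1.19 on that same array, against -0.0067 to 0.19 on the other dye 5 arrays. RPS20 had 0.51 on the dye 5 array of couple 2, against 0.044 to 0.084, and its 2 spots there gave 1.28 and -0.25. RPS14 had -0.064 in couple 1, against -0.0040 to 0.0056. Their causes were not tested.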

How the results depend on the processing

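Under each of 19 other settings, and without the dye 5 array of couple 3 (added after the data were seen), limma gave 0 features and 0 of the 40S genes past the threshold. Taking all 8 arrays with the couple as a replicate block (the paired arrays correlated at -0.036) put 2 of 24 genes at an unadjusted p under 0.05. These were RPS29 at 0.18 ± 0.072 (adjusted p = 0.687) and RPS15 at -0.16 ± 0.064 (adjusted p = 0.681). Of 5025 features, 353 were under 0.05 there, against 190 in the main fit. That setting treats swapped arrays nearly as separate replicates, and its smallest adjusted p of any feature was 0.0553. RPS29 was the 1 gene of 24 under an unadjusted 0.05 with high energy in dye 3 alone, beside 210 of 5025 features. The same held without the dye 5 array of couple 3, beside 168 of 5025 features. The median of the 24 genes was 0.058 on bright spots (18 genes), 0.056 with high energy in dye 3 alone, -0.0020 with dye 5 alone, -0.037 turned, and 0.0068 to 0.055 without 1 couple or the dye 5 array of couple 3. Genes above 0 numbered 8 turned, against 47.4% of features. They numbered 13 to 17 on leaving out a couple or that array, against 46.5% to 49.7% of features. Of the 24 genes, 19 kept their sign on centring by 96 neighbouring spots, 15 with dye 5 alone, 20 with dye 3 alone and 7 under the turned reading. Among the 12 genes that the rule for array values names, signs turned for FAU at -0.040 on centring by 96 neighbouring spots, RPS21 at 0.19 on bright spots, RPS12 at -0.0043 and RPS6 at -0.030 with dye 5 alone, and RPS28 at 0.058 and RPS10 at 0.059 with dye 3 alone. Turned values of opposite sign among these 12 were -0.090 for RPS29, -0.061 for RPS25, 0.0042 for RPS15, 0.024 for RPS24, -0.057 for RPS12, -0.041 for RPS6 and -0.0079 for FAU. Leaving out 1 couple, or that array, turned among these 12 RPS6 (-0.022 to 0.050), FAU (-0.050 to 0.068), RPS12 (-0.074 to 0.13), RPS10 (-0.15 to 0.084) and RPS21 (-0.080 to 0.010), and among the others RPS4X, RPS23, RPS27, RPS9, RPS3A and RPS19. The cause was not tested. Recovered signal is at best a lower bound, so signal over background was not assessed.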
